A study of Mus musculus with 2 samples.

Results

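Methylated regions that lay outside every transcript but within 2 kb upstream of a transcript start were examined in livers of 2 mice on high fat-high sucrose (HFHS) chow, 1 Pemt-/- and 1 Pemt+/+. A region was included when no listed RefSeq transcript contained or overlapped it and at least 1 transcript started no more than 2000 bp beyond its edge. By this rule 884 of 97063 regions were included in the Pemt-/- mouse, a share of 0.911% (95% Wilson confidence interval 0.853 to 0.973%), and 1235 of 131279 in the Pemt+/+ mouse, a share of 0.941% (0.890 to 0.994%). They lay upstream of 875 genes in the Pemt-/- mouse and 1220 genes in the Pemt+/+ mouse. Together these were 1406 genes, of which 689 had such a region in both mice.

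Both mice carried the same diet, HFHS chow from 5 weeks of age, and the sample records date the livers to 25 weeks. The Methods give feeding for a few weeks beside the enrichment step, and describe male mice. Pemt, phosphatidylethanolamine N-methyltransferase, makes phosphatidylcholine in hepatocytes and spends the methyl donor S-adenosylmethionine on it. The Pemt-/- mouse lacks this enzyme, and the study asked whether DNA methylation rises when the donor is not spent there. The captured DNA was that bound by a protein with affinity for methylated CpG, and methylated stretches appear as regions in which reads, called tags, pile up. The sample records also mention bisulphite conversion before the capture. Each genotype is represented by 1 mouse and 1 library, so that there is no replicate, no test between genotypes and no p-value, and each comparison is of these 2 libraries. Pemt itself had no region of this kind, and methylated regions show neither the genotype nor the tissue, so that neither label was checked by them.

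In mammals DNA methylation sits mostly on the cytosine of CG dinucleotides. The bases just upstream of a transcript start belong to the promoter, where many genes are rich in CG and kept free of methylation, while promoters of genes that work in germ cells are among the known exceptions and are methylated in body tissues. A capture by a methyl-binding protein responds to the number of methylated CG in a fragment, so that a stretch with few CG gives few tags even when it is fully methylated.

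To show what lies immediately before a start, the 250 bases upstream are printed for the 6 genes, among those whose regions came closest to it, that had a window in the promoter table. Rbpj had 2 windows. The sequences are those of RefSeq, on assembly GRCm38.p6, written from 5' to 3' along the gene with each CG, which reads the same on both strands, in capitals. The regions were placed on another build, mm9 in the submitters' processing notes, so that whether the printed bases match the region was not checked.

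Gm6406 (chr9:98856341-98856590, plus strand): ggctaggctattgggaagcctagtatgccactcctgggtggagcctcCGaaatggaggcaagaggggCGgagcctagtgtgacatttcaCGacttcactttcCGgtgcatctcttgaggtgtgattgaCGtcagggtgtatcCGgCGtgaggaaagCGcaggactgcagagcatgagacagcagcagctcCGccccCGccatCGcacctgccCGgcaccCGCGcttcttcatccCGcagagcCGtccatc
Krtap1-5 (chr11:99581017-99581266, minus strand): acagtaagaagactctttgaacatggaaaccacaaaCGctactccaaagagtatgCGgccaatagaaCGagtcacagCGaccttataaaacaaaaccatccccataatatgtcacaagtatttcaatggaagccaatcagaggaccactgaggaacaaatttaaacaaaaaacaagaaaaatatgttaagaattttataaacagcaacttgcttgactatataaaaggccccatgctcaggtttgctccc
Btnl9 (chr11:49187090-49187339, minus strand): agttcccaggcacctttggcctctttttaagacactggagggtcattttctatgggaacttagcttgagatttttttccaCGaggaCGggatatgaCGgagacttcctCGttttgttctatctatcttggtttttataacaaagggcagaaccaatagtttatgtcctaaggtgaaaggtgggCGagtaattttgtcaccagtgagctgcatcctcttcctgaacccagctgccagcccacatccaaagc
Trim52 (chr14:106105948-106106197, plus strand): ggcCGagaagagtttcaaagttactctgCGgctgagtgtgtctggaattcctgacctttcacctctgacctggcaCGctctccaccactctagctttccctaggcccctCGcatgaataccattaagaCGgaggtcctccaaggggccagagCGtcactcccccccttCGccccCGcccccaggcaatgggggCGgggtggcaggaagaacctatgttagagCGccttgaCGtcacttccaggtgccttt
Rbpj window 1 (chr5:53590096-53590345, plus strand): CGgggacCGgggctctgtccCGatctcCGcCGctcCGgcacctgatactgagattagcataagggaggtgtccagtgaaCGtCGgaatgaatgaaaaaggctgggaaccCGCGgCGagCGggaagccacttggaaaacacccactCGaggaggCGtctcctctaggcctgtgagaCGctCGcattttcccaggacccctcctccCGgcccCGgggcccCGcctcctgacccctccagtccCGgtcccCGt
Rbpj window 2 (chr5:53590236-53590485, plus strand): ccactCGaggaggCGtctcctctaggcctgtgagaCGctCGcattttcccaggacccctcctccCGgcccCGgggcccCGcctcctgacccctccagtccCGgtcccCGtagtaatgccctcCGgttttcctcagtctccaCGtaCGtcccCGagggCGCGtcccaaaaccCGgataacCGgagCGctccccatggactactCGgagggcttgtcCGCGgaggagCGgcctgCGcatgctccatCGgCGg
Zfp872 (chr9:22187916-22188165, plus strand): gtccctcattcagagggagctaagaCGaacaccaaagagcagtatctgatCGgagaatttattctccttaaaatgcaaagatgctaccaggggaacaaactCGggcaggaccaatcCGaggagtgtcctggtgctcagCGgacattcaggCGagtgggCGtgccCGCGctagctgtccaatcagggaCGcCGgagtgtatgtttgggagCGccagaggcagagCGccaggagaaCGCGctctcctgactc

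These promoters differed widely in CG number. The Rbpj windows held 21 and 25 CG, the Gm6406 bases 16, those of Zfp872 15 and those of Trim52 11, against 5 upstream of Btnl9 and 4 upstream of Krtap1-5. Over all 32851 promoter windows of the same length the median was 6 CG, with quartiles of 2 and 16, and 92.1% held at least 1. By these windows, the genes whose regions came closest to a start included some with CG-rich and some with CG-poor promoters. Whether each window belongs to the start that the region approached was not checked, which matters most for Rbpj with its 2 windows. A comparison of all 1406 genes with the other promoters was void, because only 77.7% of them had a printed window in the table and at least 80% were required.

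The regions ended within a few bases of the start in these genes. At Gm6406, a predicted gene, the Pemt-/- region held 13 tags and ended 2 bp from the start, and its Pemt+/+ counterpart held 14 tags and ended 66 bp away. At Btnl9, a butyrophilin-like gene, the Pemt-/- region held 11 tags at 6 bp and the Pemt+/+ region 19 tags at 3 bp. At Krtap1-5, a hair keratin-associated protein gene in a tandem cluster, there were 12 tags at 5 bp in the Pemt-/- mouse and 26 tags at 23 bp in the Pemt+/+ mouse. These 3 genes were marked at the same place in both livers. Trim52, a tripartite motif gene, had 50 tags in a Pemt-/- region that ended 8 bp before the start, while the Pemt+/+ region of 86 tags ran across the start and so fell outside the rule. At Rbpj, the gene of the transcription factor of Notch signalling, a Pemt-/- region of 8 tags ended 17 bp from the start and had no overlapping Pemt+/+ region, but one of 49 tags lay 438 bp away. At Zfp872, a zinc finger gene, a Pemt+/+ region of 16 tags ended 10 bp from the start, and the nearest Pemt-/- region lay 9677 bp away. In the Pemt+/+ mouse, regions also ended 2 bp from Defb19, a defensin gene, with 28 tags, 5 bp from Adam30, a testis metalloprotease-like gene, with 30 tags, and 11 bp from Myf6, a muscle transcription factor gene, with 11 tags. Defb19 and Adam30 were marked in the Pemt-/- mouse as well, with 21 and 16 tags, whereas at Myf6 no Pemt-/- region overlapped.

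Regions became scarce in the last bases before a start. The first 250 bp upstream held 59 regions in the Pemt-/- mouse, 6.67% of the 884, and 66 in the Pemt+/+ mouse, 5.34% of the 1235. Each of the other 7 bins of 250 bp held 99 to 141 regions in the Pemt-/- mouse and 138 to 204 in the Pemt+/+ mouse. Just beyond transcript ends, where distance was measured in the same way, the first 250 bp held 148 and 201 regions. The low number was thus seen on the side of the start and not on the side of the end, in both mice. From 2 to 4 kb upstream there were 124 regions per 250 bp in the Pemt-/- mouse and 168 in the Pemt+/+ mouse, close to the 118 and 167 found between 250 and 2000 bp. The regions that were present next to the start did not hold fewer tags, since the median was 13 in the Pemt-/- mouse and 16 in the Pemt+/+ mouse in the first 250 bp, against 12 and 16 over the whole 2 kb.

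**Figure D1:**
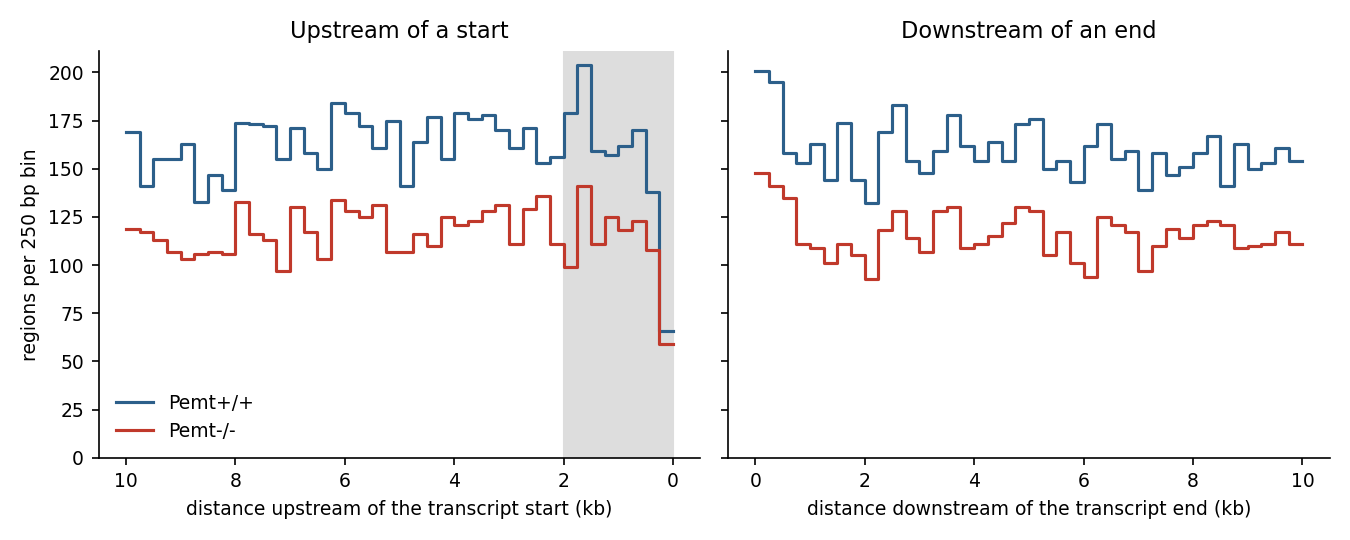
Number of regions outside transcripts in bins of 250 bp (vertical axis) by distance in kb upstream of the nearest transcript start (left, shaded up to 2 kb) or downstream of the nearest transcript end (right) in the Pemt-/- and the Pemt+/+ library. The bin next to the start holds 59 and 66 regions, and the bin next to the end 148 and 201.

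At the limit of 2000 bp the number of regions did not change in the same direction in both mice. In the last 100 bp inside it there were 36 regions with a median of 12.5 tags in the Pemt-/- mouse and 74 with a median of 15 in the Pemt+/+ mouse. In the first 100 bp outside it there were 42 with 14.5 and 54 with 17. A region of the other mouse overlapped 83.3% of those inside and 85.7% of those outside in the Pemt-/- mouse. In the Pemt+/+ mouse these shares were 51.4% and 61.1%.

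As a class, regions upstream of starts were ordinary in size. In the Pemt-/- mouse they held a median of 12 tags, from 8 to 87, against 13 over all regions, and in the Pemt+/+ mouse 16, from 9 to 122, against 17. Their median fold enrichment over the background of the peak caller was 18.2 in the Pemt-/- mouse and 17.5 in the Pemt+/+ mouse, where all regions had 16.9 and 16.5. Their median length was 395 and 404 bp, against 421 and 423 bp. The lists do not give the library totals, and all listed regions together contained 1582080 tags in the Pemt-/- mouse and 2847831 in the Pemt+/+ mouse. Chromosomes 7 and 11 carried more of the upstream regions than of all regions, 8.37% against 4.98% and 8.82% against 4.97% in the Pemt-/- mouse, and 6.88% against 5.14% and 8.83% against 5.23% in the Pemt+/+ mouse. On the X chromosome there were 8 and 18, which was 0.905% against 1.11% of all regions in the Pemt-/- mouse and 1.46% against 1.30% in the Pemt+/+ mouse. Another gene lay close by in many cases, since 175 regions in the Pemt-/- mouse and 231 in the Pemt+/+ mouse were also within 10 kb downstream of the end of a different gene, and 7 and 19 lay upstream of more than 1 gene.

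The most heavily marked upstream stretches were shared by both mice. Arl9, which encodes a small GTPase of the ARF-like family, came first in both, with 87 tags in the Pemt-/- mouse (chromosome 5, 77431052 to 77432378, mm9, 701 bp from the start) and 122 in the Pemt+/+ mouse. Acsm3, a medium-chain acyl-CoA synthetase gene of mitochondria, followed in the Pemt-/- mouse with 65 tags (chromosome 7, 126902779 to 126903507) and had 78 in the Pemt+/+ mouse. The edges of the Acsm3 regions lay 929 and 930 bp from the start. Zfp397os, a zinc finger gene, had 57 and 59 tags, and Tspan8, a tetraspanin gene, 54 and 58. These pairs were almost equal in both libraries, whereas most pairs held clearly more tags in the Pemt+/+ mouse. Npm1, which encodes the nucleolar chaperone nucleophosmin, and Dsp, the desmoplakin gene of cell junctions, each had 43 and 47 tags. Zfp397os, Tspan8, Npm1 and Dsp were named for their Pemt-/- tags only, a choice that favours pairs with relatively many Pemt-/- tags.

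Other strongly marked genes leaned toward the Pemt+/+ mouse as most pairs did. Taf9b, a subunit gene of the general transcription factor TFIID on the X chromosome, had 48 tags in the Pemt-/- mouse and 83 in the Pemt+/+ mouse. Moxd1, a monooxygenase gene, had 46 and 81, at a fold enrichment of 43.6 and 49.6. Among the strongest regions of the Pemt+/+ mouse, Fam113b had 88 tags against 31 in the Pemt-/- mouse, the widest gap in this group. Nop10, a protein gene of the ribonucleoprotein that guides pseudouridylation, had 66 against 37, and Csf3r, the receptor gene for granulocyte colony-stimulating factor, 64 against 31. Stt3b, a catalytic subunit gene of the oligosaccharyltransferase, had 63 against 29, and Nrl, a transcription factor gene of photoreceptors, 63 against 33. In each of these genes the smaller value was still well above the median of 12 tags in the Pemt-/- mouse. Fam113b, Nop10, Csf3r, Stt3b and Nrl were named for their Pemt+/+ tags only, a choice that favours pairs leaning toward the Pemt+/+ mouse.

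**Figure D2:**
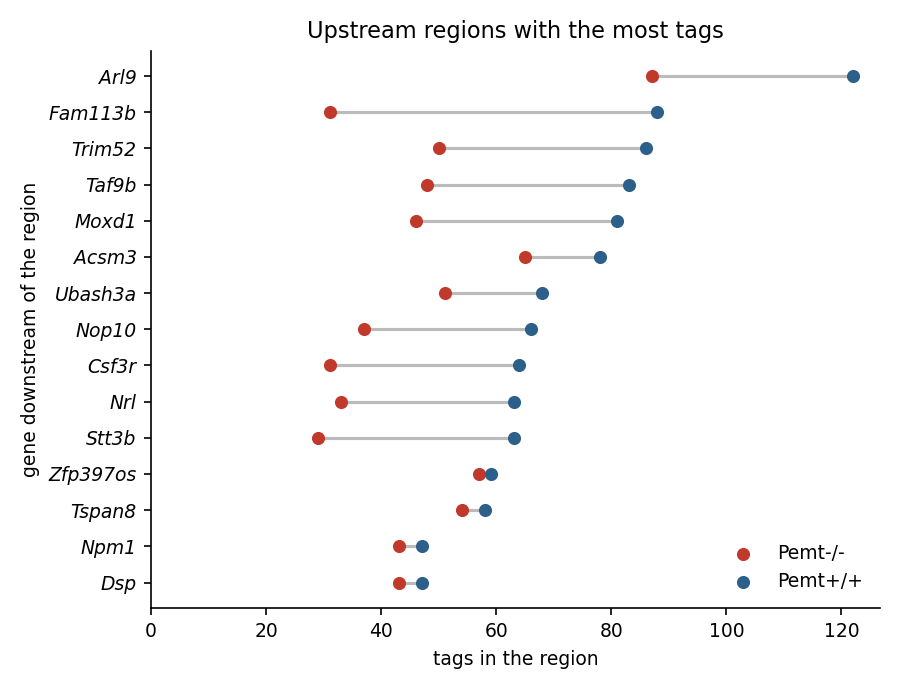
Tags per region (horizontal axis) in the Pemt-/- and the Pemt+/+ mouse for the 15 genes whose upstream regions were among the 10 with the most tags in either mouse. Arl9 is highest with 87 and 122 tags, and every Pemt+/+ point lies to the right of the Pemt-/- point; the Pemt+/+ region of Trim52 runs across the transcript start.

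Few genes carried more than 1 upstream region within a mouse, 16 of 875 in the Pemt-/- mouse and 36 of 1220 in the Pemt+/+ mouse, and none carried more than 2. Counted over both mice, 11 genes had 4 regions. Ubash3a, which encodes a suppressor of T cell receptor signalling, had regions of 51 and 26 tags in the Pemt-/- mouse, 1590 and 962 bp from the start, and of 68 and 42 tags in the Pemt+/+ mouse, 1606 and 968 bp from it. The gene showed the same pair of marked stretches in both mice. Ssr3, a subunit gene of the translocon-associated complex, had 16 and 17 tags in the Pemt-/- mouse and 26 and 41 in the Pemt+/+ mouse. Zfp507, a zinc finger gene, had 25 and 12 tags in the Pemt-/- mouse and 42 and 10 in the Pemt+/+ mouse.

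Most upstream regions of the Pemt-/- mouse had a counterpart in the Pemt+/+ mouse. Among the 884, 714 shared at least 1 bp with a Pemt+/+ region, which was 80.8% (78.0 to 83.2%), and 170 overlapped none, 19.23% against 16.7% of all Pemt-/- regions. Among the 1235 of the Pemt+/+ mouse, 724 had a Pemt-/- counterpart, which was 58.6% (55.9 to 61.3%), and 511 did not, which was 41.4% against 38.4% of all Pemt+/+ regions. The counterpart nearly always belonged to the same class: 694 of the 714 Pemt-/- regions overlapped an upstream region within 2 kb, 13 a region across a start and 7 one that lay farther away. When both mice had such a region at a gene in a one-to-one pair, their edges on the side of the start differed by a median of 37 bp, and 77.2% of these 689 pairs differed by no more than 100 bp. The lists differ in length, and with the 97063 regions of highest score in each the overlapping shares were 68.4% of the Pemt-/- and 69.6% of the Pemt+/+ upstream regions, the opposite order.

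Whether a region was found in the other mouse moved with its number of tags. Upstream regions with a counterpart held a median of 13 tags in the Pemt-/- mouse and 20 in the Pemt+/+ mouse, and those without held 9 and 12. Of the Pemt-/- upstream regions with 8 or 9 tags, 59.7% (53.2 to 66.0%) had a counterpart, and all 82 with 23 to 32 tags did. Of the Pemt+/+ upstream regions, the share went from 23.4% (16.5 to 32.1%) at 9 tags or fewer to 94.7% (89.5 to 97.4%) at 33 tags or more. In every range of tags the share over all regions lay within the interval of the upstream regions. Of the upstream regions with 20 tags or more, 2 of 158 in the Pemt-/- mouse and 49 of 416 in the Pemt+/+ mouse had no counterpart. The share over all regions was not taken at this limit. At 23 to 32 tags, 98.8% of all Pemt-/- regions and 85.4% of all Pemt+/+ regions had a counterpart.

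**Figure D3:**
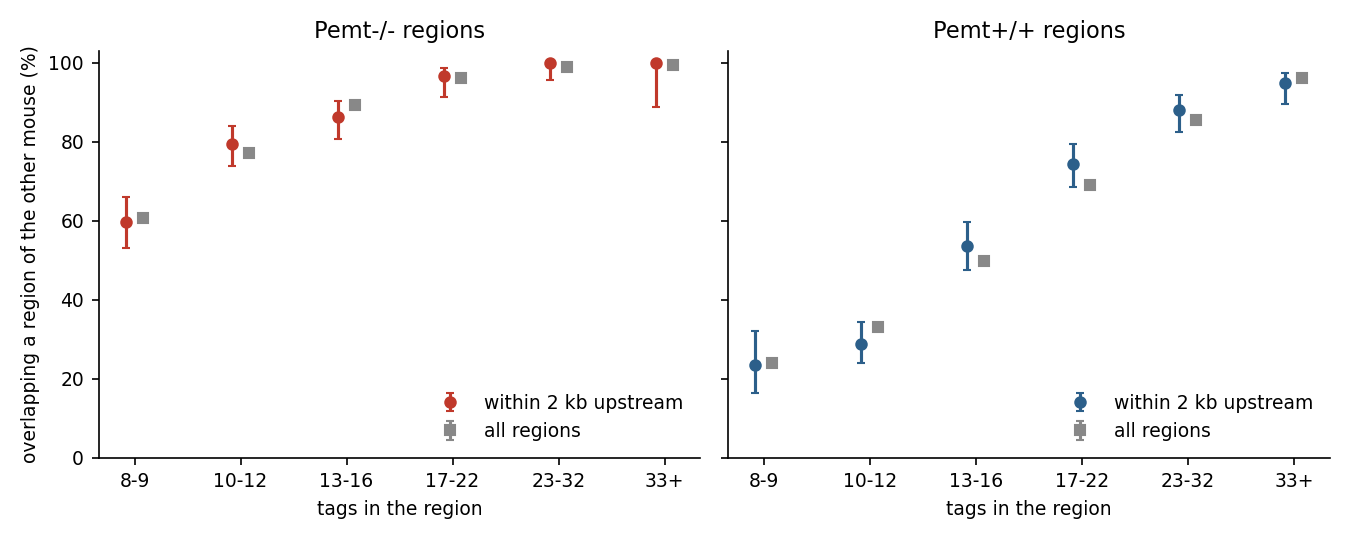
Share of regions that overlap a region of the other mouse (vertical axis, %) by the number of tags in the region (horizontal axis), for regions within 2 kb upstream of a start and for all regions, in the Pemt-/- (left) and the Pemt+/+ (right) mouse; bars are Wilson 95% intervals. The shares of upstream regions climb from 59.7% to 100% in the Pemt-/- mouse and from 23.4% to 94.7% in the Pemt+/+ mouse.

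More genes were marked in the Pemt+/+ mouse only than in the Pemt-/- mouse only. No upstream region had a counterpart in 168 of 875 genes of the Pemt-/- mouse and in 504 of 1220 genes of the Pemt+/+ mouse, where 16.7% and 38.4% of all regions had none. With lists of equal length, in which the Pemt+/+ list is cut to its higher scores, the numbers were 274 and 265. The Pemt-/- region of highest score without a counterpart lay 1025 bp upstream of Iqcf5 and held 22 tags, with a Pemt+/+ region of 46 tags 1960 bp away. The next lay upstream of Mup21, a major urinary protein gene of the liver, 701 bp from the start, and held 19 tags. Around it no Pemt+/+ region was nearer than 12145 bp. Tmem178 had 14 tags, with a Pemt+/+ region of 13 tags 660 bp away. Psmd5, a chaperone gene for proteasome assembly, had 13 tags and Acyp1, an acylphosphatase gene, 15, and their nearest Pemt+/+ regions lay 6738 and 2216 bp away.

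The Pemt+/+ regions of this kind held more tags, as Pemt+/+ regions did in general. The median was 17 against 13 over all regions, and 12 against 9 over all upstream regions without a counterpart. Upstream of Phgdh, which encodes the first enzyme of serine synthesis, a region of 36 tags ended 990 bp from the start (chromosome 3, 98144882 to 98145526), and the nearest Pemt-/- region lay 13443 bp away. Cytip, a cytohesin-interacting protein gene of lymphocytes, had 40 tags at 454 bp, with the nearest Pemt-/- region 6914 bp away. Both exceeded the median Pemt+/+ upstream region of 16 tags. They were picked for high score and for lacking a Pemt-/- counterpart, so both traits follow from the choice. The olfactory receptor gene Olfr761 and Mxra7, a matrix-remodelling gene, each had 28 tags, and the nearest Pemt-/- regions lay 6925 and 8329 bp away. Slc35e3, a solute carrier gene, had 33, with a Pemt-/- region of 39 tags 1417 bp away.

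Tags could be compared directly in 733 one-to-one pairs in which at least 1 partner was an upstream region. Dividing Pemt-/- by Pemt+/+ tags gave a median of 0.692, with quartiles of 0.556 and 0.880, against 0.682, 0.545 and 0.850 over all 79393 pairs. Upstream regions thus followed the offset between the libraries that all regions showed, and the ratios ran from 0.229 to 1.83. The Pemt-/- mouse held more tags in 76 pairs, or 10.4%, the same share as over all pairs. A ratio at least 2-fold above the median of all pairs, toward the Pemt-/- mouse, was reached by 16 pairs, 2.18% against a background of 2.12%, and 18 pairs were at least 2-fold below it, toward the Pemt+/+ mouse, 2.46% against 1.93%. Both shares were near the background.

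**Figure D4:**
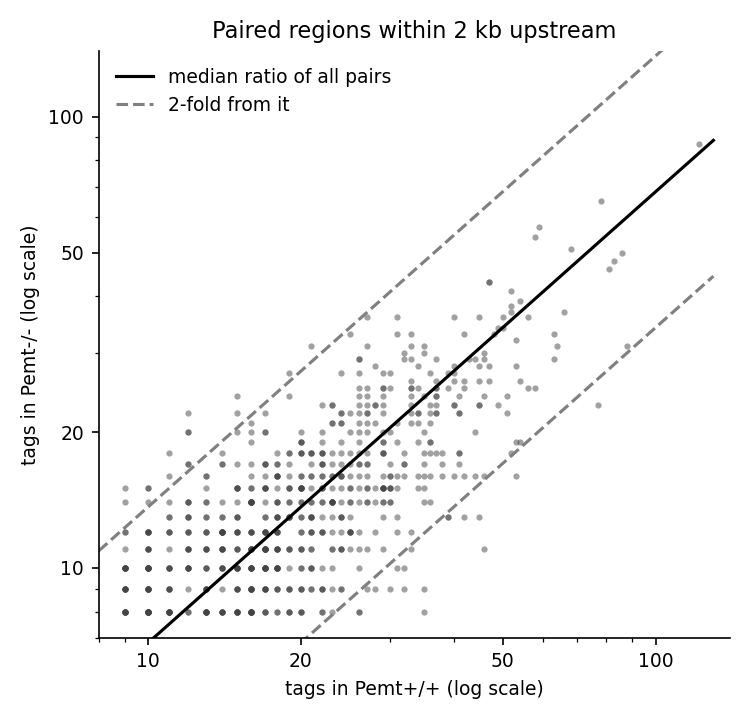
Tags in the Pemt-/- mouse (vertical axis, log scale) and the Pemt+/+ mouse (horizontal axis, log scale) for the 733 pairs with an upstream region; each point is a pair, and the lines mark the median ratio of all pairs, 0.682, and 2-fold above and below it. Of the points, 16 lie on or beyond the upper dashed line and 18 on or beyond the lower one.

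Among the 254 pairs of upstream regions with at least 40 tags together, the lowest ratios were found at genes of several kinds. Kcne1, which encodes an accessory subunit of potassium channels, had 8 tags in the Pemt-/- mouse and 35 in the Pemt+/+ mouse, so that the Pemt-/- mouse held 18.6% of the tags (9.74 to 32.6%). Agr2, a protein disulphide isomerase gene of secretory cells, had 9 and 35, and Cdgap, a gene for a GTPase-activating protein, 9 and 32. Pik3c3, the gene of the lipid kinase that starts autophagy, had 11 and 46, and Atp11b, a phospholipid flippase gene, 13 and 45. Over all pairs the Pemt-/- mouse held 39.9% of the tags, which lay above the interval of each of these 5 genes. They were the lowest of 254, so that such intervals describe them and test nothing.

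At the other end, Kpna1, which encodes an importin for nuclear proteins, had 31 tags in the Pemt-/- mouse and 21 in the Pemt+/+ mouse, a Pemt-/- share of 59.6% (46.1 to 71.8%). Cpsf4, a gene of the cleavage and polyadenylation complex, had 27 and 19, and B3galnt1, a glycosyltransferase gene, 36 and 27. Tmem70, whose product helps to assemble ATP synthase, had 33 and 25. Ifit2, an interferon-induced gene, had 24 and 19. All 5 held more tags in the Pemt-/- mouse against the direction of most pairs. They were picked for the highest ratios, so that this direction and the interval describe them and test nothing. At B3galnt1 a second upstream region went the usual way, with 10 tags in the Pemt-/- mouse and 19 in the Pemt+/+ mouse.

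Gene groups were described by how many of their members had an upstream region in either mouse, beside 5.34% of all 26220 RefSeq genes. Only 14370 of the 26220 had a listed region of any class within 10 kb. Among the germline genes 69 of 88 had one, and among the DNA methylation genes below 29 of 35. The 5.34% thus counts many genes without any listed region, and the shares were not corrected for this. Among 88 germline genes, whose products act in meiosis, in egg or sperm or in pluripotent cells, 11 had one, or 12.5%, with 6 in the Pemt-/- mouse and 11 in the Pemt+/+ mouse. Dmc1, the meiotic recombinase gene, had 28 tags in the Pemt-/- mouse and 53 in the Pemt+/+ mouse, 804 and 770 bp from the start. Smc1b, a meiotic cohesin gene, had 22 and 41. Piwil1, which encodes a partner of piRNAs in the testis, had 16 tags ending 118 bp from the start and 30 tags ending 218 bp from it. All 6 germline genes with an upstream region in both mice held fewer tags in the Pemt-/- mouse, the direction of most pairs, and the remaining ones were Zfp42, a pluripotency marker gene, with 13 and 24, Nobox, an oocyte transcription factor gene, with 13 and 19, and Tex11, a meiosis gene on the X chromosome, with 10 and 18.

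The other 5 germline genes were listed upstream in the Pemt+/+ mouse only, which for some was a matter of the region's edge. Dazl, an RNA-binding protein gene of germ cells, had an upstream region of 28 tags in the Pemt+/+ mouse, and it overlapped a Pemt-/- region of 52 tags that ran across the start. This overlap was not one to one, so these tag numbers cover unlike stretches and cannot be compared. At Mael, which serves transposon silencing in the testis, the Pemt+/+ region of 25 tags ended 134 bp from the start and the Pemt-/- region of 15 tags crossed it. No Pemt-/- region overlapped that of Fkbp6 with 17 tags, but one of 42 tags lay 849 bp away. Nor did any overlap those of Zp3, an egg coat protein gene, with 13, and Pou5f1, the gene of the pluripotency factor Oct4, with 9 tags 45 bp from the start, and the nearest ones lay 10785 and 19189 bp away. The promoters of Piwil1 and Mael, at which the regions of both mice came within 250 bp of the start or crossed it, are shown in the same way as above.

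Piwil1 (chr5:128735996-128736245, plus strand): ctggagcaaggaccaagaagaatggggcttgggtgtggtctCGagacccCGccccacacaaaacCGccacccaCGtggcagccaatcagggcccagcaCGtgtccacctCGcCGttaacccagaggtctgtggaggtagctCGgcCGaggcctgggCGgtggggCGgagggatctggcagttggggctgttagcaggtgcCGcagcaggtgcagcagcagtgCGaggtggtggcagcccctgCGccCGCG
Mael (chr1:166238745-166238994, minus strand): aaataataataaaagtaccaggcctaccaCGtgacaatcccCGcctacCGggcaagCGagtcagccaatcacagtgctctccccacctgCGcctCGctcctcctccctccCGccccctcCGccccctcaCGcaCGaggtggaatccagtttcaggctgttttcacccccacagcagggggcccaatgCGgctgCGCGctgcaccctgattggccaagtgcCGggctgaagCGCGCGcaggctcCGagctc

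Both are rich in CG, with 16 in Piwil1 and 18 in Mael, which put them above 74.6% and 78.3% of the promoter windows.

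Imprinted genes, of which a single parental copy is active, had upstream regions in 4 of 78 cases, or 5.13%. Inpp5f, an inositol phosphatase gene, had 11 tags in the Pemt-/- mouse and 24 in the Pemt+/+ mouse. Mest, a gene expressed from the paternal copy, had a long Pemt+/+ region of 61 tags (chromosome 6, 30686250 to 30687753) that ended 309 bp from the start, with a low fold enrichment of 6.90. It overlapped no Pemt-/- region, and the nearest one, 337 bp away, held 22 tags. Plagl1, a paternally expressed zinc finger gene, had 27 tags in the Pemt+/+ mouse with a Pemt-/- region of 43 tags 708 bp away, and Pon3, a paraoxonase gene, had 11. At these 3 genes the Pemt+/+ region had no overlapping partner, but Mest and Plagl1 were marked close by in the Pemt-/- mouse too.

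Genes that place, read or remove DNA methylation had upstream regions in 6 of 35 cases, or 17.1%, with 5 in each mouse. Apobec2, a cytidine deaminase family gene, had 13 tags in the Pemt-/- mouse and 17 in the Pemt+/+ mouse. Zfp57, whose product binds methylated imprinting control regions, had 9 and 18. Kdm2b, which encodes a CG-binding histone demethylase, had 9 and 17, and Trim28, the corepressor gene that works with such zinc finger proteins, 8 and 13. These 4 were marked at the same place in both mice at low tag numbers. Zbtb4, the gene of a reader of methylated CG, had 9 tags in the Pemt-/- mouse only, and Gadd45a 14 in the Pemt+/+ mouse only. None of the DNA methyltransferase genes in this list, Dnmt1, Dnmt3a, Dnmt3b and Dnmt3l, and none of Tet1, Tet2 and Tet3 had an upstream region in either mouse.

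Among 67 hepatocyte genes, 5 had an upstream region, or 7.46%. Tat, the tyrosine aminotransferase gene, had 23 tags in the Pemt-/- mouse and 37 in the Pemt+/+ mouse, and Cyp1a2, a drug-metabolizing cytochrome gene, 23 and 28. Arg1, the urea cycle arginase gene, had 35 tags in the Pemt+/+ mouse 1848 bp from its start, overlapping a Pemt-/- region of 17 tags that lay farther than 2000 bp. Fetub, a secreted fetuin gene, had 21 tags and Cyp27a1, an enzyme gene of bile acid synthesis, 11, both in the Pemt+/+ mouse only. Genes that define hepatocytes were therefore mostly without such a region, as other genes were. Of 28 liver transcription factor genes, 2 had one, or 7.14%. Hnf4a, the nuclear receptor gene named in the study, had 13 tags in the Pemt-/- mouse 1170 bp from its start (chromosome 2, 163371225 to 163371753). No Pemt+/+ region overlapped it, and the nearest one, 1663 bp away, also held 13 tags. Onecut1, another hepatocyte regulator, had 11 tags in the Pemt+/+ mouse only. The smallest upstream regions held 8 tags in the Pemt-/- and 9 in the Pemt+/+ mouse.

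**Figure D5:**
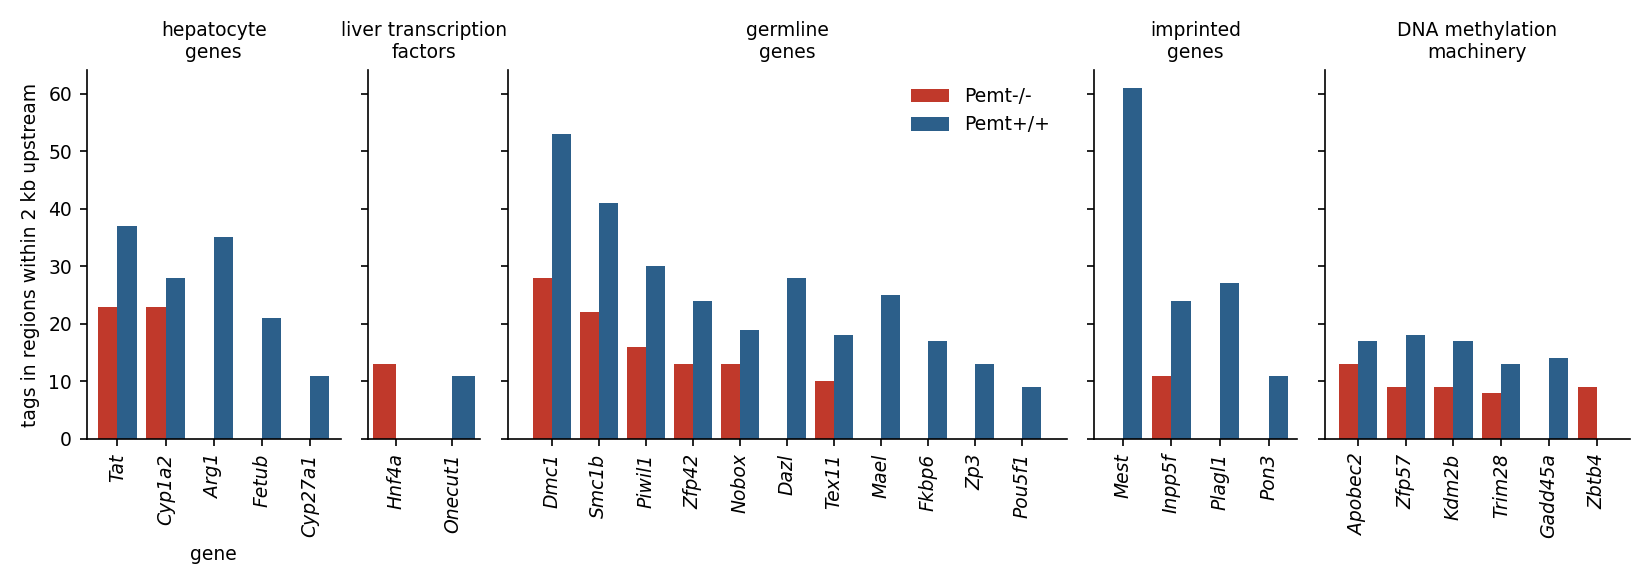
Tags in regions within 2 kb upstream (vertical axis) in the Pemt-/- and the Pemt+/+ mouse for each gene of 5 gene groups that had such a region in either mouse. A missing bar means no region of this class and not absence of any methylated region; Mest has the tallest bar with 61 tags in the Pemt+/+ mouse, and Dmc1 follows with 53.

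In each list of metabolic genes 2 had an upstream region, too few to set their shares apart from the 5.34% of all genes. A listed region of any class was present at 40 of 54 and 51 of 66 metabolic genes, against 14370 of all 26220. Of 54 genes of phospholipid and one-carbon metabolism, 2 had one, or 3.70%, and neither did in the Pemt-/- mouse. They were Gnmt, whose product methylates glycine with S-adenosylmethionine, with 12 tags, and Lpcat2, a lysophosphatidylcholine acyltransferase gene, with 12. Of 66 genes of fatty acid, triglyceride and cholesterol metabolism, 2 had one, or 3.03%: Lipe, the hormone-sensitive lipase gene, had 14 tags in the Pemt-/- mouse, and Pnpla3, a lipid droplet protein gene, had 10 in the Pemt+/+ mouse. None of these 4 was found in both mice. Of 60 genes of p53, apoptosis and the cell cycle, 2 had one, or 3.33%, Gadd45a, a growth arrest gene, with 14 tags and Ccnb1, the cyclin B1 gene, with 10, both in the Pemt+/+ mouse.

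Of 66 genes of inflammation and fibrosis, 3 had an upstream region, or 4.55%. Cd14, a coreceptor gene for lipopolysaccharide, had 18 tags in the Pemt-/- mouse and 35 in the Pemt+/+ mouse. Nlrp3, the inflammasome sensor gene, had 9 tags in the Pemt-/- mouse 186 bp from its start, and Col4a1, a basement membrane collagen gene, 9 in the Pemt+/+ mouse. Of 46 housekeeping genes, 2 had one, or 4.35%. Aldoa, the glycolytic aldolase gene, was among the more strongly marked, with 36 and 56 tags at a fold enrichment of 40.7 and 49.2, and Emc7, a gene of the endoplasmic reticulum membrane complex, had 9 in the Pemt+/+ mouse. Among gene families taken by symbol, olfactory receptor genes had 13 regions in the Pemt-/- mouse and 18 in the Pemt+/+ mouse, zinc finger protein genes 20 and 28, and solute carrier genes 20 and 34. The sizes of these families were not counted, so these numbers give no share to set beside that of all genes.

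Each mouse also had a shorter list, whose basis is not stated. In the Pemt-/- mouse, 24 of the 884 upstream regions were in it with the same position and tags, which was 2.71% against 2.13% of all regions. In the Pemt+/+ mouse there were 55 of 1235, which was 4.45% against 4.59%. No counterpart was listed for 21 of the 24 in the Pemt-/- mouse, where 92.0% of all such regions had none, and for 41 of the 55 in the Pemt+/+ mouse, where 81.2% had none. The false discovery rate that the caller gave them in that list was 100% for all 24 in the Pemt-/- mouse and ranged upward from 25.2%, with a median of 32.7%, in the Pemt+/+ mouse. The Pemt-/- regions held 8 to 20 tags, with Plek2, a pleckstrin family gene, first at 20 against 17 in the Pemt+/+ mouse, and Mup21 next. The Pemt+/+ regions held 9 to 54 tags and began with Myom1, a sarcomere protein gene, at 54 against 19 in the Pemt-/- mouse, 111 bp from the start. Phgdh, Cytip, Kcne1, Agr2 and Atp11b were among them. The Pemt-/- region of 11 tags assigned to Fbxo31, which it follows on the side of the transcript end, was also in this class. It lay 396 bp upstream of the start of another gene, 1700018B08Rik. No Pemt+/+ region overlapped it, but one of 10 tags lay 198 bp away. Fbxo31 itself had no region within 2 kb upstream.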

How the data were processed

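Liver DNA of 1 Pemt-/- and 1 Pemt+/+ mouse was enriched for methylated DNA by the authors with the EpiXplore kit, prepared with the TruSeq ChIP kit and sequenced by Genome Analyzer IIx. The submitters' processing notes name CASAVA version 1.8.2, Bowtie and mm9 without giving their roles. The authors deposited 2 region lists per mouse with MACS region names, paired with RefSeq transcripts up to 10 kb away. The caller's settings, control and treatment of duplicate reads, all of which change tag numbers, are not given in the sources used here.

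Tags are deposited as raw counts of reads per region, the fold enrichment as a ratio over the background, the p-value as a score of 10 times its -log10 (at least 50 in these lists), and the FDR in percent. Positions and distances are in bp, and a region with several transcripts was counted once.

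Overlap was taken at 1 bp or more, and tags were compared in regions that overlap one to one. With 1 library per genotype no test was run, and counts are given beside those over all regions. Library totals were not used here, so tags are not scaled. Wilson 95% intervals cover counting error only, treat regions or tags as independent and do not measure the spread between mice. RefSeq tables of GRCm38.p6 gave promoter bases and gene identifiers. The genes named followed a rule: in each mouse the 10 regions with the most tags, the 5 of highest score without a counterpart and the 5 closest to a start, the 5 pairs of highest and lowest ratio with at least 40 tags together, the 5 genes with the most regions, up to 6 genes per list, and Pemt, Fbxo31 and Hnf4a. Germline genes beyond the sixth, families by symbol and genes of the shorter lists were named after their values were seen. The class and the 10 gene lists were chosen with earlier results of these data known. One gene that the rule names is not reported here. Alternatives were the upper 50% of each list by score, lists of equal length, autosomes only, a limit of 1000 bp and shared bases making up 50% or more of each region. Python 3.11.15 (pandas 2.3.3, numpy 2.4.6, scipy 1.17.1, matplotlib 3.10.9) was used, and the calculations were tested on simulated data.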

Additional observations from a re-analysis of the deposited data

How the results depend on the processing

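No paired analysis was possible because only 1 library represents each genotype. Over 13 values and their alternatives, 33 recomputed values stayed within 1.5 times the count or within the counting interval, and 24 did not. Keeping autosomes only moved none of them. Keeping 50% of each list, by score, left 418 upstream regions in the Pemt-/- and 586 in the Pemt+/+ mouse, with 90 and 249 genes in one mouse only, 5 and 30 regions in the shorter lists, and 3 and 7 pairs at least 2-fold toward the Pemt-/- and the Pemt+/+ mouse. A limit of 1000 bp left 408 and 536 regions, 83 and 213 genes, 12 and 22 regions in the shorter lists, and 7 and 10 such pairs. Both alternatives keep fewer regions and so cannot raise the counts of regions. The counts of genes in one mouse only and of 2-fold pairs are not bound in this way. With lists of equal length the shares found in the other mouse were 68.4% and 69.6%, the genes in one mouse only 274 and 265, the median ratio 0.655, and 10 pairs leaned at least 2-fold toward the Pemt-/- mouse. There the Pemt+/+ list is cut to its higher scores. Asking for shared bases of 50% or more of each region lowered the shares found to 75.9% and 55.1%. The share of regions in the first 250 bp, with alternatives chosen after seeing the data, ran from 5.18% to 6.94%. The lists give no reads for unlisted stretches and no library totals, so that for a region listed in one mouse only the depth in the other is unknown.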
